A study of Mus musculus with 7 samples.

Results

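The 69 genes described here had their highest read counts in the mouse adrenal gland before birth. Members were chosen by their own E18.5 values: a gene was taken when its normalized count at E18.5, an embryonic stage shortly before birth, was at least 50 and at least 2 times the largest of the counts in the 6 postnatal libraries. The rule took 69 of 35976 gene symbols, or 0.507% of the 13615 genes with at least 50 normalized counts at E18.5. Because these values chose the genes, the E18.5 excess is a description and was not tested. A normalized count is the number of reads assigned to a gene divided by 1 size factor per library, so it is comparable between libraries for 1 gene but not per length between genes.

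Whole adrenals came from mice of the inbred strain C57BL/6J, with no genetic change or treatment stated, and their RNA was sequenced. Glands were pooled into 1 library per group: 40 glands at E18.5 with sex not determined, 16 from males and 22 from females at postnatal day 1 (P1), 6 from each sex at 2 weeks and 4 from each sex at 12 weeks. No group had a second library, and how many mice gave each pool is not stated. A difference in a whole gland can come from fewer cells of a type or from less RNA of that gene per cell, and these cannot be told apart here.

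The adrenal gland holds a cortex that makes steroid hormones and a medulla whose chromaffin cells release catecholamines. In the mouse, the cortex that formed in the fetus is replaced in large part by cells of the definitive cortex, and the inner remnant of fetal descent is known as the X-zone. The fetal mouse adrenal is a known site of renin and of Cyp17a1 expression, both of which are low or absent in the adult gland of many strains. The circulation before birth is rich in young red cells, so their transcripts reach every organ that is collected with its blood.

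Depth and identity of the libraries bear on all values below. Reads assigned to genes ranged from 15184210 in the 12-week male to 23551289 in the P1 male library. All 12 adrenocortical markers and all 12 chromaffin markers had at least 50 normalized counts at E18.5. The Y-linked gene Ddx3y was counted at 604 in the library labelled P1 female, 21.7% of the 2782 in P1 male, against 1.76 and 1.13 in the other two female libraries. At E18.5 both Ddx3y (1745) and the X-inactivation RNA Xist (9782) were present. Markers of other tissues also differed between the young libraries. The counts of 18 hepatocyte genes summed to 364107 before birth, to 459261 for the P1 males and 354401 for the P1 females, and to at most 43881 later. For 12 skeletal muscle genes the sums were 116279, 204549 and 339100. Those of 10 exocrine pancreas genes were 887, 8580 and 566, and those of 12 kidney genes were 1869, 11089 and 3568. No hepatocyte, muscle, pancreas or kidney marker was among the 69 genes. Of these markers 18, 11, 2 and 5 had at least 50 counts at E18.5, and the rule took 0.507% of all such genes, so 0 is near that share. The part of these tissues in the results was not tested.

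The promoters of members whose values are given first are shown here as sequence context, from RefSeq on GRCm38.p6, each with 250 bases before and 50 after an annotated start, written 5′ to 3′ on the gene's strand. Capitals mark exact matches on either strand to the NF-Y box CCAAT and to the TATA box TATAAA, to the cAMP response element TGACGTCA and to AAGGTCA, which is the core of the steroidogenic factor 1 site and reads TGACCTT on the other strand.
Akr1b7, chr6:34412112-34412411, + strand: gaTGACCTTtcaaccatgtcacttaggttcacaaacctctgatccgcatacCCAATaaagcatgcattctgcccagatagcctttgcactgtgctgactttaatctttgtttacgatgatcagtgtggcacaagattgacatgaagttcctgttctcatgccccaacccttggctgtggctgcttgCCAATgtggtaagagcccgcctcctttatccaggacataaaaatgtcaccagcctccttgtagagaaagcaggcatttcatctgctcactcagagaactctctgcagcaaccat
Ren1, chr1:133350424-133350723, + strand: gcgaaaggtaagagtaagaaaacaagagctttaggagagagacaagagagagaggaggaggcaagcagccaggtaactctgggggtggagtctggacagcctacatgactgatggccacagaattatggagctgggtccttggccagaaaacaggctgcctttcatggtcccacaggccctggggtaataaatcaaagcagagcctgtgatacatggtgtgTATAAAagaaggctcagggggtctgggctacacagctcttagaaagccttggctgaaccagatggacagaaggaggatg
Meg3, upstream of its first start, chr12:109540746-109541045, + strand: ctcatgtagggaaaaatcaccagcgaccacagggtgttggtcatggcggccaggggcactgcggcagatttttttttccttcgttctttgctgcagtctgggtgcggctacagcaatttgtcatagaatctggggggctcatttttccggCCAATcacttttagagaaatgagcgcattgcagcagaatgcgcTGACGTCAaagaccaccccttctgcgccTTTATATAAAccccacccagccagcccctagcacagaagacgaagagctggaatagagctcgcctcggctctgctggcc
Gm38684, chr3:121531327-121531626, + strand: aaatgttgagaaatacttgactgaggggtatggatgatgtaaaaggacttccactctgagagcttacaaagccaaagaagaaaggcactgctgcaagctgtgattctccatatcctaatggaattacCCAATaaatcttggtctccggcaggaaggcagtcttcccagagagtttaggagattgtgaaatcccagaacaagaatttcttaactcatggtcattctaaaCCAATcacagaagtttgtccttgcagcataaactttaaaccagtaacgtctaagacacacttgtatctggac
Akr1b7 has an AAGGTCA match on the minus strand 248 bases before the start and CCAAT matches at 199 and 64 bases. Ren1 has TATAAA 29 bases before its start. Meg3 has TGACGTCA at 57 and TATAAA at 25 bases, the latter overlapping a minus-strand match at 29 bases, and Gm38684 has CCAAT at 123 and 22 bases.

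Of the 69 members, 55 had a promoter in that table, which holds 27025 genes, and 9 motifs were searched on both strands. AAGGTCA lay in 5 of 55 member promoters (9.09%; Akr1b7, Meg3 at a second start, Lsm11, Gm15767 and 5430401H09Rik), against 5.38% of all promoters and 4.02% of those of genes with at least 50 counts at E18.5. TGACGTCA was in 4 (7.27%; Meg3, Gm38708, Gm39038 and 4930412O13Rik) against 2.03% of all and 3.60% of those of genes with at least 50 counts. CCAAT was in 25 (45.5%, against 41.1% and 42.9% of these 2 sets), TATAAA in 10 (18.2%, against 15.7% and 9.15%) and the GATA motif AGATAA in 8 (14.5%, against 12.7% and 7.72%). The HNF1 site motif GTTAAT was in 1 (8.24% and 5.75%). The full steroidogenic factor 1 motif TCAAGGTCA, which contains the core, was in 0 of these windows, as were the E2F motif TTTCGCGC and the sterol regulatory element, against 0.466%, 0.374% and 0.0999% of all promoters. A match describes the letters of the window and is not a measured binding site.

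The next sequences are mature miRNAs encoded inside members, shown because a host transcript that is high before birth is the visible part of such loci in these data. Bases 2 to 8, the seed by which a miRNA pairs with its targets, are in capitals.
mmu-miR-322-5p: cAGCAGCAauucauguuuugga
mmu-miR-503-5p: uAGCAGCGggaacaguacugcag
mmu-miR-351-5p: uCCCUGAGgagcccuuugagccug
mmu-miR-453: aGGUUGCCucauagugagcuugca
mmu-miR-496a-5p: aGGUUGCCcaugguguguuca
mmu-miR-433-3p: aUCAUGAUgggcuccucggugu
By RefSeq spans, the first 3 lie in C430049B03Rik on chromosome X (53053112 to 53057190), the next pair in Mirg on chromosome 12 (109734981 to 109749458), and miR-433 in 6430411K18Rik (109591537 to 109592851) of the same chromosome. The GENCODE M21 span of C430049B03Rik (53055046 to 53057190) does not contain the first 3. In all, 6 of the 68 members with a RefSeq position contained a miRNA hairpin, with 10 hairpins in Mirg, and the 33 mature miRNAs inside members had 32 different seeds. The only shared seed among them, GGUUGCC, was that of miR-453 and miR-496a-5p. The largest count of any of these hairpins at E18.5 was 31.1, and the mature miRNAs themselves were not measured.

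The E18.5 excess was mostly near the limit of the rule. The ratio of E18.5 to the largest postnatal library had a median of 2.41 and a maximum of 7.27, in the pseudogene Serpina4-ps1. It was at least 3 in 23 members, at least 4 in 13 and at least 5 in 7. In 37 members the 95% interval of the ratio, which covers counting error only, lay wholly above 2. It uses the same counts that chose the members, so it is a description and no separate support for their excess. The largest postnatal value was in P1 male for 47 members and in P1 female for 12, so 59 of 69 were next highest at the age closest to birth. Just inside the 2-fold limit were Selenbp2 (2.01), Gm34090 (2.02), Itga2 (2.02), LOC108168243 (2.03) and Lsm11 (2.04), and just outside it Tube1 (1.99), LOC105242408 (1.97), Sqle (1.97), 1500004A13Rik (1.97) and Rmi2 (1.95). Just inside the minimum were Gm16013 (55.5 counts), Wfdc12 (58.0) and Lincred1 (58.0), and just below it F830002L21Rik (48.7), Hkdc1 (48.7) and Ffar3 (47.9). Applied to the males, the same rule took 165 genes at P1, 0 at 2 weeks and 121 at 12 weeks. Applied to the females, it took 124, 16 and 52 genes at those ages.

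**Figure D1:**
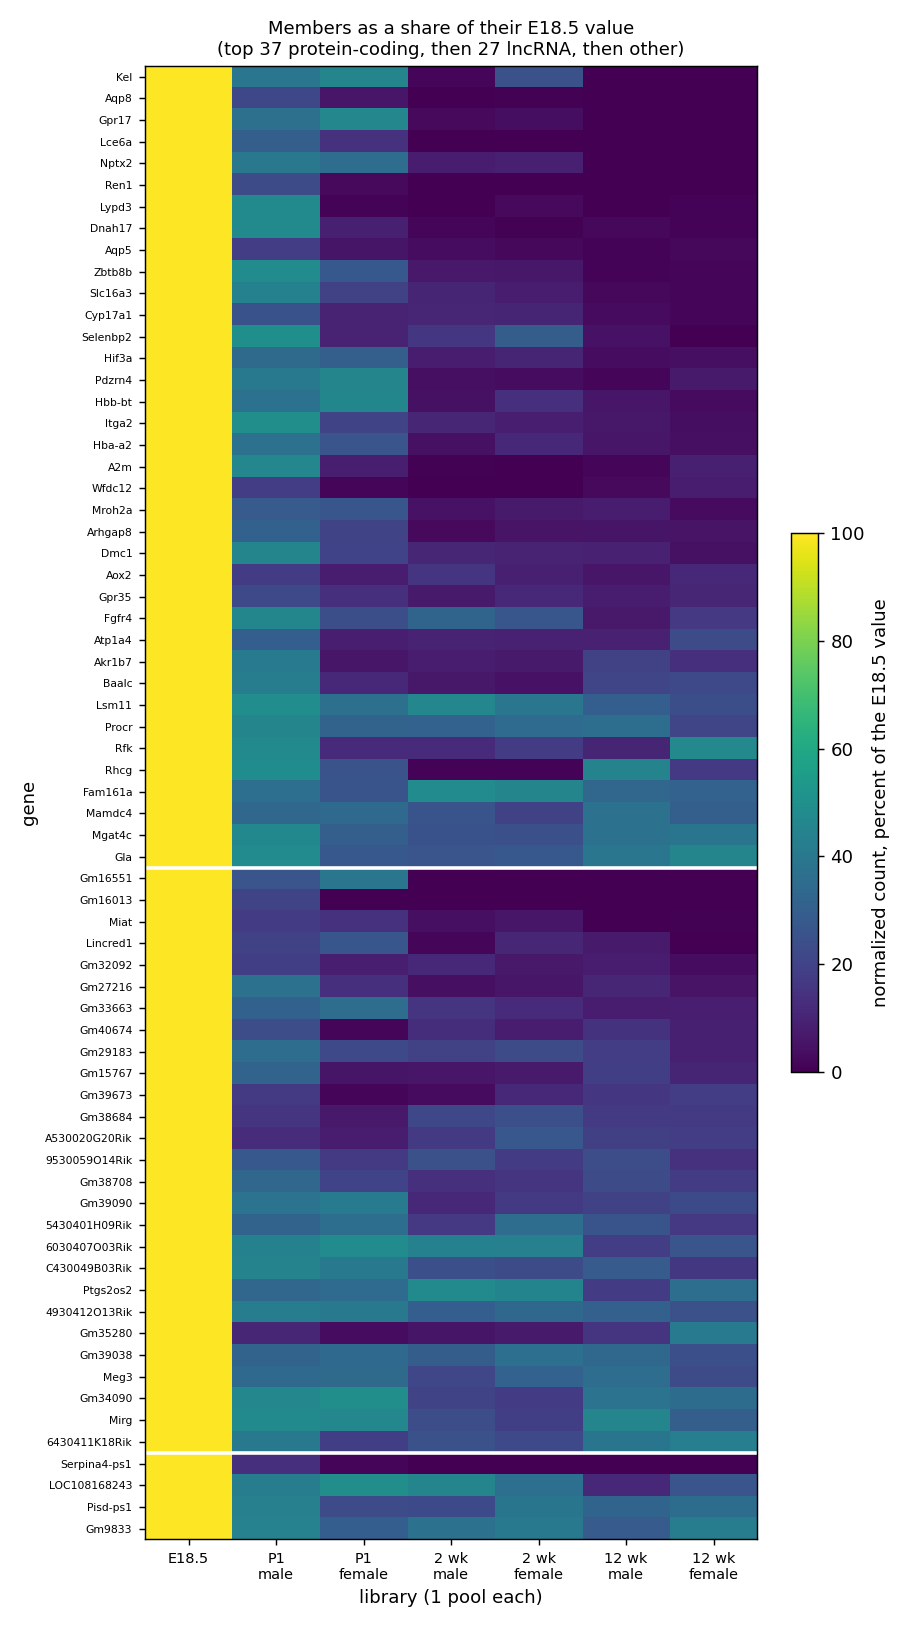
Heat map of 68 of the 69 members (rows) in the 7 libraries (columns, 1 pool each), coloured by the normalized count as a percent of the gene's E18.5 value. Protein-coding genes are above the first white line, lncRNAs between the lines and the 4 others below; over all 69 the median share left was 29.9% at P1, 9.54% by 2 weeks and 11.7% in the adult libraries.

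After birth the members kept a median of 29.9% of their E18.5 count at P1 (mean of both sexes), then 9.54% by 2 weeks and 11.7% by 12 weeks. Under 10% was left in 3 members at P1, in 35 by 2 weeks and in 34 by 12 weeks. At each step 35 members were lower than before, while 25 had a higher mean at 12 weeks than at 2 weeks and 9 a higher mean at 12 weeks than at P1. In both 12-week libraries 15 members had 3 reads or fewer, and 8 of these (Kel, Aqp8, Gpr17, Lce6a, Serpina4-ps1, Nptx2, Gm16551 and Gm16013) had none. All 69 together made up 1.01% of the normalized total before birth, 0.401% of that of the P1 males, 0.122% of that of the P1 females and 0.0885% to 0.142% later. Akr1b7 alone gave 54.5% of the members' sum at E18.5.

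Akr1b7 had the highest E18.5 count of the members. It is an aldo-keto reductase that removes the aldehyde released when cholesterol's side chain is cut. It was counted at 106039 before birth, then, males before females, at 44187 and 6535 at P1, 8610.1 and 7768 at 2 weeks, and 20940.0 and 14809 at 12 weeks. Pairs of postnatal counts below are in the same order, male before female. It was thus high before birth, low in P1 female and at 2 weeks, and higher again at 12 weeks, with the P1 male library between. Ren1 encodes renin, the protease that starts the angiotensin cascade. Its counts were 15068 at E18.5, 3478 and 398 at P1, 8.90 and 24.7 at 2 weeks, and 8.39 and 23.8 at 12 weeks. By 12 weeks 0.107% of the E18.5 count remained, and in P1 the male library held 8.73 times the female count. Cyp17a1, the 17α-hydroxylase of the androgen and cortisol branch, was counted at 336 at E18.5, 85.1 and 33.1 at P1, 36.5 and 35.3 at 2 weeks, and 9.79 and 4.53 at 12 weeks. The levels at E18.5 and at 12 weeks differed most, with P1 female and both 2-week libraries close to each other.

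The list of 12 adrenocortical genes held 1 member, Akr1b7, and 4 of the 12 were highest at E18.5, against 13.4% of all 16720 genes with a mean of at least 10. Besides Akr1b7 these were Scarb1 (the HDL receptor; ratio to the largest postnatal value 1.51), the electron carrier Fdx1 (1.19) and the side-chain cleavage enzyme Cyp11a1 (1.15). Star, which brings cholesterol into mitochondria, went the other way, with a ratio of 0.44 to its largest postnatal count. Of the 3 X-zone genes, Cyp17a1 was a member, whereas Akr1c18 was counted at 283 at E18.5 and at 26949 in 2-week female. None of the 7 zona glomerulosa or 12 chromaffin genes was highest at E18.5. Among 10 sympathetic neuroblast genes 5 were highest at E18.5, against 13.4% of all genes. As members there were 0, near the 0.507% that the rule took of all genes with at least 50 counts at E18.5.

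Further enzymes and transporters were high in E18.5. Rfk, riboflavin kinase, makes the flavin cofactor FMN. Its counts were 9562 at E18.5, 4581 and 1142 at P1, 1132 and 1683 at 2 weeks, and 1005 and 4514 at 12 weeks. The male was the higher at P1 and the female at 2 and at 12 weeks, each time within 1 pool per sex. A2m, the protease inhibitor alpha-2-macroglobulin, was counted at 10681 at E18.5, 4955 and 907 at P1, 68.5 and 36.2 at 2 weeks, and 129 and 957 at 12 weeks. Its 12-week female value was close to that of P1 female, while both 2-week libraries were the lowest. Sqle, the squalene epoxidase of cholesterol synthesis, missed the rule narrowly with 1545 at E18.5 and 784 in its next library. The water channel Aqp8 had 312 counts at E18.5, 67.1 and 18.8 at P1, 1.76 in the female pool of 2 weeks and 0 in the remaining libraries. Aqp5, of the same channel family, had 160.5 counts at E18.5, 29.5 and 8.83 at P1 and at most 5.34 later. Both are channels whose postnatal counts after P1 were at or near the limit of detection. Rhcg, an ammonia transporter, had 495 counts at E18.5, 240 and 127 at P1, 5.34 and 5.29 at 2 weeks, and 222 and 84.9 at 12 weeks. It was low in both 2-week libraries, the lowest of its 7 counts.

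**Figure D2:**
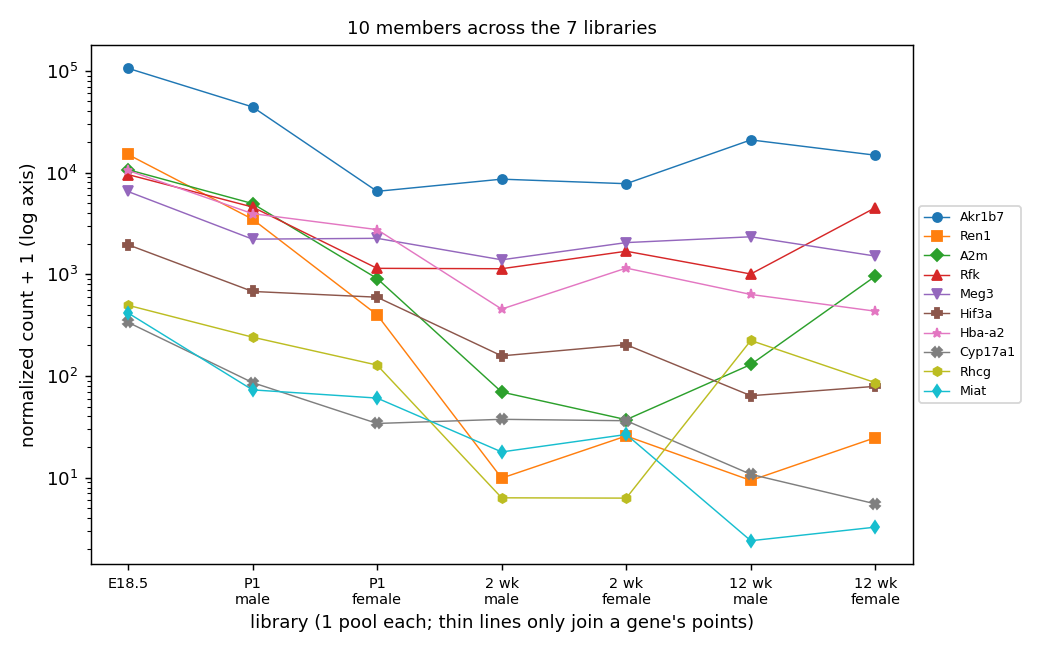
Normalized count plus 1 (log axis) of 10 members in each of the 7 libraries (1 pool each); thin lines only join a gene's points. All points at the left are the highest of their gene, Ren1 drops to between 8.39 and 24.7 from 2 weeks on, Rhcg is low at 2 weeks only, and Akr1b7, A2m, Ren1 and Rfk are lower in the library labelled P1 female than in P1 male.

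Hif3a and Slc16a3, of oxygen sensing and lactate transport, were members. Hif3a is an alpha subunit of the hypoxia-inducible factors. It was counted at 1953 at E18.5, 677 and 594 at P1, 157 and 202 at 2 weeks, and 62.9 and 78.1 at 12 weeks. The sexes were close at every age and each age lay below the one before. Slc16a3, the lactate exporter MCT4, followed with 1070.4, then 472 and 212, then 109 and 80.3, and then 20.97 and 19.2. In RefSeq, but not in GENCODE M21, it overlaps Csnk1d on the opposite strand. Some of its reads are thus uncertain if the counting used such spans and ignored strand. Of 16 hypoxia response genes 7 were highest at E18.5, against 13.4% of all genes. None of the 16 was a member. Of them 14 had at least 50 counts at E18.5, and the rule took 0.507% of all such genes, so 0 is near that share. Ankrd37 had a ratio of 3.55 to its largest postnatal count but only 35.3 counts at E18.5, below the minimum of 50. Among those with at least 50 counts the highest ratio was 1.77, that of the oxygen-sensing hydroxylase Egln3.

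Red cell genes formed a further group. Hba-a2, an alpha globin, had 10487 counts at E18.5, 3943 and 2747 at P1, 454 and 1149 at 2 weeks, and 632 and 432 at 12 weeks. Hbb-bt, an adult beta globin, had 10407 counts, then 3897 and 4779, then 447 and 1419, and then 612 and 325. Both were lowest from 2 weeks on and higher in the 2-week female than the 2-week male library. Each has a near-identical copy, Hba-a1 and Hbb-bs, whose ratios of 1.88 and 1.65 stayed just below the limit, and reads may have been split between copies. Kel, the Kell blood group protein of the red cell membrane, had 440.3 counts at E18.5, 173 and 201 at P1, 6.23 and 109 at 2 weeks and 0 in both 12-week libraries. Of 19 erythroid genes measured, 15 were highest at E18.5, against 13.4% of all genes. As members there were 3, where the rule took 0.507% of all genes with at least 50 counts at E18.5. The summed counts of the 19 were 122817 at E18.5, 68948 and 66675 at P1, 12940 and 32229.5 at 2 weeks, and 13983 and 6255 at 12 weeks. Among the embryonic globins, all below the minimum of 50, Hbb-y had 18.48 counts at E18.5, or 8.37 times its largest postnatal count, Hba-x had 15.1 (1.71 times) and Hbb-bh1 had 0. The share of blood in each pool was not tested.

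Surface receptors and matrix contacts were also among the members with high counts. Itga2, the alpha 2 subunit of a collagen-binding integrin, had 3357 counts at E18.5, 1661 and 683 at P1, 354 and 283 at 2 weeks, and 215 and 119 at 12 weeks. Procr, the endothelial protein C receptor, had 1515 counts and stayed between 317 and 688 in the 6 postnatal libraries. None of 8 other endothelial markers was highest at E18.5, where 13.4% of all genes were. Fgfr4, a receptor for fibroblast growth factors, had 982 counts at E18.5, 451 and 236 at P1, 317 and 262 at 2 weeks, and 67.1 and 162 at 12 weeks. Gpr35, a G protein-coupled receptor, had 373 counts at E18.5 and between 27.6 and 82.6 after birth. Gpr17, a receptor best known in oligodendrocyte precursors, had 169 counts at E18.5, 62.2 and 78.4 at P1, 4.45 and 6.18 at 2 weeks and 0 at 12 weeks. Gpr17 overlaps Lims2 on the other strand, whose E18.5 count was 0.29 of its largest postnatal value.

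Other coding members kept more of their E18.5 count. Mgat4c, a glycosyltransferase of N-glycan branching, had 2480 counts at E18.5 and between 602 and 1155 after birth. Fam161a, a protein of the cilium base, had 1057 counts at E18.5, and Gla, the lysosomal alpha-galactosidase, had 1054. At 12 weeks 32.3% was left of Fam161a, 42.2% of Gla and 26.9% of Lsm11, a component of the U7 particle that trims histone mRNA. Of 18 cell cycle genes 11 were highest at E18.5, against 13.4% of all genes. None of them was a member. All 18 had at least 50 counts at E18.5, and the rule took 0.507% of all such genes, so 0 is near that share. Members with few reads after P1 included the aldehyde oxidase Aox2 (69.7 at E18.5), the late cornified envelope gene Lce6a (108) and Mroh2a (73.9). Atp1a4, a sodium pump subunit, had 325 counts at E18.5, 97.4 and 27.6 at P1, 32.0 and 30.0 at 2 weeks, and 29.4 and 74.7 at 12 weeks.

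Long noncoding RNAs (lncRNAs) were frequent among the members. By RefSeq class 38 members were protein-coding (55.1%), 27 were lncRNAs (39.1%), 3 were transcribed pseudogenes and 1, LOC108168243, had no match. Among all 13615 genes with at least 50 counts at E18.5, lncRNAs were 366 (2.69%). The rule took 7.38% of those lncRNAs and 0.293% of the 12974 coding genes. In 15 of 27 lncRNA members and 21 of 38 coding members the counting interval of the ratio lay above 2, on the same counts that chose them. The classes also differed among all genes with a mean of at least 10 over the 6 postnatal libraries. Over 1087 lncRNAs the median log2 difference of E18.5 from P1 male was 0.31 and from P1 female 0.41, and from the 12-week male and female libraries -0.55 and -0.40. Over 14896 coding genes these medians were -0.05, -0.07, 0.05 and 0.02. With that filter the same rule took 26 of 447 lncRNAs and 73 of 12241 coding genes in 12-week male. It took 9 of 409 and 38 of 12111 in 12-week female, and 4 of 266 and 118 of 13217 in P1 female. In P1 male the lncRNA share was the smaller, with 2 of 284 against 160 of 13233. In 2-week female it took 1 of 304 and 13 of 12674, and in 2-week male 0 of either class. The part of unspliced or nuclear RNA in each library was not tested. Of 10 abundant nuclear lncRNAs, 3 were members (Meg3, Mirg and Miat), against the 7.38% of lncRNAs above. Of the 10, 6 were highest at E18.5, against 13.4% of all genes. Malat1, on the same list, had 169602 counts at E18.5, 69614 and 57267 at P1 and 526125 and 427350 at 12 weeks, which is not the order of the members.

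**Figure D3:**
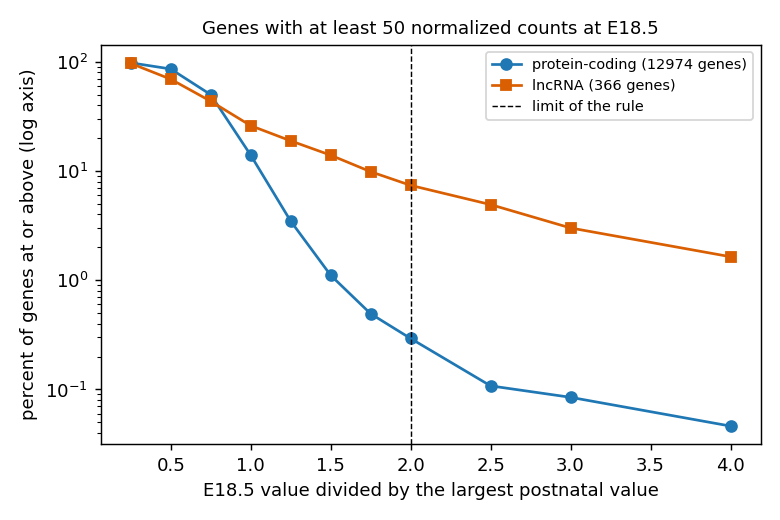
Percent of genes (log axis) whose E18.5 count divided by the largest postnatal count is at or above the value on the horizontal axis, for 12974 coding genes and 366 lncRNAs with at least 50 counts at E18.5. At the dashed limit of 2 the lncRNA line is at 7.38% and the coding line at 0.293%; the E18.5 values themselves set this plot.

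Several members with few reads had high ratios. Serpina4-ps1, a pseudogene of the serine protease inhibitor family, had 71.4 counts at E18.5, 9.82 and 1.10 at P1 and 0 in all later libraries. Wfdc12, a small protease inhibitor, had 58.0 counts, then 10.6 and 1.10 at P1, 0 at 2 weeks, and 1.40 and 4.53 at 12 weeks. Both were thus counted almost only before birth and in the P1 males, on fewer than 100 reads. The lncRNA Gm32092 had 105 counts at E18.5 and at most 19.6 after birth, Gm40674 75.6 and at most 18.0, and Gm16013 55.5 and at most 11.5. In each of these 3 the highest postnatal count was that of P1 male. Gm39673 (62.2 at E18.5) and 9530059O14Rik (71.4) were highest after birth in 12-week female (11.3) and P1 male (19.6). The pseudogenes Serpina4-ps1, Pisd-ps1 and Gm9833 resemble other genes in sequence, and reads may have been split between copies.

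An imprinted locus gave 3 of the lncRNA members. Meg3 is a maternally expressed lncRNA of the Dlk1 domain on chromosome 12, where RNAs of the maternal copy run on through Rian to Mirg, the host of many miRNAs. Meg3 (109540996 to 109571729) had 6512 counts at E18.5, 2213 and 2255 at P1, 1386 and 2047 at 2 weeks, and 2335 and 1508 at 12 weeks. It was highest at E18.5 and between 1386 and 2335 in all 6 postnatal libraries. Mirg had 261 counts at E18.5, 125 and 121 at P1, 61.4 and 48.5 at 2 weeks, and 119 and 79.2 at 12 weeks. 6430411K18Rik, which lies between them and is named after its values were seen, had 101 counts and then between 18.8 and 43.0. Rian, between 6430411K18Rik and Mirg, missed the rule with 11851 at E18.5 and 6543 in P1 male (ratio 1.81). The paternally expressed genes of the domain differed in order. Dlk1 had 3264 counts at E18.5 and 5837 in P1 female, and Rtl1 had a ratio of 0.94. By its RefSeq span Rtl1 overlaps Meg3 and 6430411K18Rik on the other strand, whereas its GENCODE M21 span does not reach Meg3. Of 16 imprinted growth genes 7 were highest at E18.5, against 13.4% of all genes, and Igf2 (0.57) and H19 (0.53) were not.

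Another pair lies together on chromosome 3. Gm38684 (121531577 to 121532464) and A530020G20Rik (121532944 to 121536207) are 479 bases apart, and 1 GENCODE M21 model of A530020G20Rik (121531619 to 121536206, + strand) spans both, so they may be 1 transcript. A530020G20Rik had 1313 counts at E18.5, 169 and 106 at P1, 223 and 359 at 2 weeks, and 249 and 240 at 12 weeks. Gm38684 had 173 counts, then 26.2 and 12.1, then 37.4 and 42.3, and then 29.4 in both 12-week libraries. Both were lowest at P1, the age closest to E18.5, and higher at 2 weeks. Slc44a3, which overlaps Gm38684 on the other strand, had 346 counts at E18.5 and 974 in its highest postnatal library.

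Other lncRNA members differed in how much was left after birth. Miat, a nuclear lncRNA, had 416 counts at E18.5, 72.0 and 59.6 at P1, 16.9 and 25.6 at 2 weeks, and 1.40 and 2.26 at 12 weeks. C430049B03Rik, the host of miR-322 and miR-503 by its RefSeq span only, had 859 counts at E18.5, 383 and 345 at P1, 210 and 195 at 2 weeks, and 246 and 140 at 12 weeks. Miat was thus close to 0 in the adult libraries, whereas 22.5% of C430049B03Rik was left. Gm39090 had 597 counts at E18.5 and between 68.5 and 248 after birth, and it overlaps Bcl7c on the other strand. On chromosome 1, Gm29183 lies inside 6030407O03Rik on the same strand, so these 2 members, named after their values were seen, may share reads. Of 68 members with a position, 20 (29.4%) overlapped another gene with a mean count of at least 10, against 21.4% of the 12961 located genes with at least 50 counts at E18.5. For lncRNAs the shares were 48.1% and 58.3%.

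Change after birth was tested in the 6 postnatal libraries, which the rule capped together but did not put in order. The cap left members less room to rise after P1 than other genes had, while the rule set no limit to falls. Shares of members called lower or higher, and their median changes, are therefore descriptions beside all genes and no test against them. The test was limma's moderated test on log2(normalized count + 1) with age and sex as terms, 2 residual degrees of freedom and Benjamini-Hochberg adjustment over the 16720 genes with a mean of at least 10 over all 7 libraries. The filter kept 68 members and left out Gm16013. It includes E18.5: 57 members also reached a mean of 10 over the 6 postnatal libraries, and 11 passed only through E18.5, where all members are high by the rule. Counts are therefore also given with the filter set on the postnatal mean, a choice made after seeing the data. A call means an adjusted p under 0.05. Since every group is 1 pool, the error comes from how far the sexes depart from a common age course, and fold changes are on the log2(count + 1) scale.

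Between P1 and 2 weeks 21 of 68 members fell (30.9%) and 0 rose, against 10.5% of all genes called lower and 5.89% higher. The cap of the rule limits rises from P1, so the 0 is in part set by it. With the filter on the postnatal mean 19 of 57 fell and 0 rose, against 10.4% and 5.89% of all genes. The members' median log2 change was -1.02 and that of all genes 0.00. The largest falls were those of Ren1 (-6.21 ± 1.06 SE; adjusted p = 0.0130, limma), A2m (-5.38 ± 1.09; adjusted p = 0.0214) and Rhcg (-4.80 ± 0.40; adjusted p = 0.00214). Of the 21, Lce6a and Gm16551 had passed the filter only through E18.5. The globins Hba-a2 (-2.19, adjusted p = 0.0221) and Hbb-bt (-2.44, adjusted p = 0.0261) also fell in limma's fit. Mirg was 1 of 3 lncRNAs called lower, with -1.16 ± 0.28 (adjusted p = 0.0355), next to 18 coding members. Fewer members, and fewer of all genes, were called when any 1 of the P1 or 2-week libraries was left out. Without either 12-week library more of both were called. The members' median change was -0.61 without the P1 males and -1.64 without the P1 females. It was -0.64 without the 2-week males and -1.33 without the 2-week females. edgeR's quasi-likelihood test on the recovered reads called 24.

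From 2 to 12 weeks 8 members fell (11.8%; 9.89% of all genes) and 2 rose (2.94%; 5.4% of all genes), shares near those of all genes. With the filter on the postnatal mean 8 of 57 fell and 2 rose, against 9.92% and 5.44% of all genes. The median change was -0.19 in members and -0.03 in all genes. The largest falls were in Kel (-4.82 ± 0.97; adjusted p = 0.0221, limma), Miat (-2.96 ± 0.48; adjusted p = 0.0108), Nptx2, the secreted neuronal pentraxin (-2.75 ± 0.63; adjusted p = 0.0324), and Gpr17 (-2.64 ± 0.57; adjusted p = 0.0279). Kel, Nptx2 and Gpr17 were at 0 at 12 weeks, so these fitted values depend on the added count, and none of the 3 passed under edgeR. Cyp17a1 (-2.26 ± 0.46; adjusted p = 0.0235), Slc16a3 (-2.17 ± 0.33; adjusted p = 0.00906) and Hif3a (-1.33 ± 0.23; adjusted p = 0.0141) also fell in limma's fit. The 2 that rose were Rhcg (4.45 ± 0.40; adjusted p = 0.00183) and Baalc, a membrane-associated protein of neural and blood progenitor cells (1.93 ± 0.46; adjusted p = 0.0375). Baalc had 676 counts at E18.5, 287 and 78.4 at P1, 44.5 and 31.8 at 2 weeks, and 143 and 150.5 at 12 weeks. Both had fallen from P1 to 2 weeks (Baalc by 1.97, adjusted p = 0.0343, limma), and from P1 to 12 weeks neither was called. Fewer members, and fewer of all genes, were called when any 1 of the P1 or 2-week libraries was left out. More of both were called without the 12-week males. The members' median change was -0.49 without the 2-week males and 0.28 without the 2-week females. By edgeR 6 members were called.

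Over the whole span from P1 to 12 weeks 28 members fell (41.2%; 23.5% of all genes) and 0 rose (17.6% of all genes). Rises over this span were also limited by the cap of the rule. With the filter on the postnatal mean 24 of 57 fell and 0 rose, against 23.4% and 17.7% of all genes, and the other 4 of the 28 were Aqp5, Gm16551, Lce6a and Mroh2a. The median log2 change was -1.005 in members and -0.03 in all genes. Of the 28, 23 were coding and 5 were lncRNAs. The largest falls were in Kel (-7.55 ± 0.97; adjusted p = 0.00174, limma), Ren1 (-6.27 ± 1.06; adjusted p = 0.00464), Gpr17 (-6.15 ± 0.57; adjusted p = 0.000550) and Aqp8 (-5.20 ± 0.95; adjusted p = 0.00640). Of these, Kel, Gpr17 and Aqp8 were at 0 at 12 weeks and their fitted values depend on the added count. Also lower in limma's fit were Miat (-4.57, adjusted p = 0.000795), Slc16a3 (-3.91, adjusted p = 0.000392), Hif3a (-3.16, adjusted p = 0.000264), Cyp17a1 (-2.81, adjusted p = 0.00423) and Itga2 (-2.73, adjusted p = 0.000539). Among the lncRNAs C430049B03Rik was lower by limma (-0.97, adjusted p = 0.0207). Meg3 and Akr1b7 were not called in any of these comparisons. Under every alternative run on them 11 of the 28 stayed called, among them Gm16551, Gpr17, Hif3a, Itga2, Kel, Lce6a, Miat, Nptx2, Slc16a3 and Zbtb8b; Gm16551 and Lce6a were not tested with the filter on the postnatal mean. Without the P1 male library fewer members, and fewer of all genes, were called, and some members were then called higher. The members' median change was then -0.83.

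**Figure D4:**
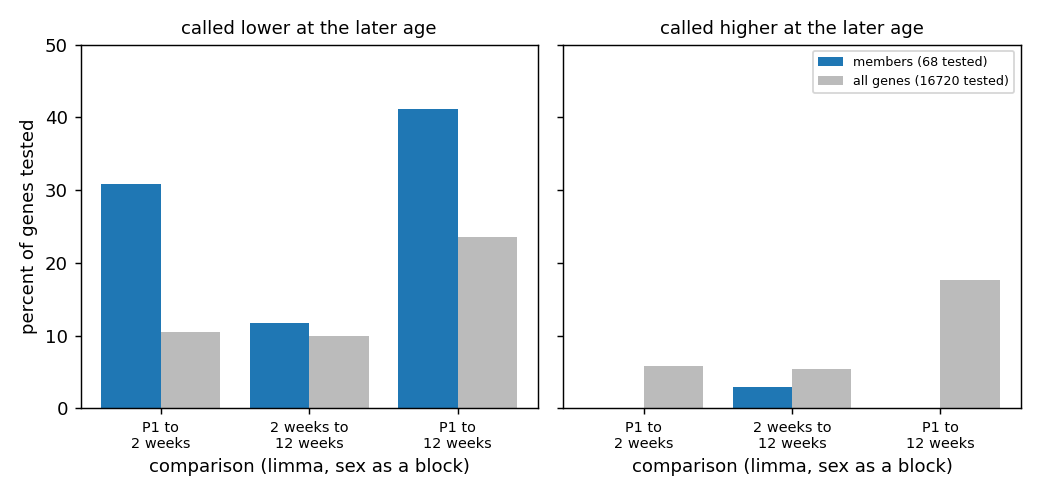
Percent of genes called by limma at an adjusted p under 0.05, lower (left) or higher (right) at the later age, for the members tested (68, blue) and all 16720 genes tested (grey). Members are called lower in 30.9%, 11.8% and 41.2% and higher in 0%, 2.94% and 0% of cases from left to right. The rule caps the members' postnatal counts and so limits how far they can rise.

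In all, 32 of 68 members (47.1%) were called between any pair of the 3 postnatal ages, a share near the 45.2% of all genes. By class, 26 of 38 coding members (68.4%) and 6 of 26 lncRNA members tested (23.1%) were called, against 45.6% of all coding genes and 41.6% of all lncRNAs tested. Of the members with a postnatal mean of at least 10, 23 of 33 coding ones and 5 of 21 lncRNAs were called. Lower from P1 to 2 weeks and again from 2 to 12 weeks were 4 members: Hif3a, Slc16a3, Itga2 and Gpr17. The lncRNA members kept a median of 28.9% of E18.5 at P1, 18.97% by 2 weeks and 18.9% by 12 weeks, and the coding members 30.5%, 8.46% and 5.08%. The lncRNAs had fewer reads, with a median of 108 counts at E18.5 against 355, and the difference between the classes was not tested.

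The library labelled P1 female stood apart from P1 male in these genes. At P1, 28 of 68 members (41.2%) were at least 2-fold higher in male than female on the log2(count + 1) scale, against 3.75% of all genes, and 0 were 2-fold higher in female (3.03% of all genes). With 1 pool per sex and age this comparison has no replicate check. The 68 include the 11 members that passed the filter only through E18.5, and the shares were not recounted without them. Among the 28 were such members as Serpina4-ps1 and Wfdc12, with 1 read each in P1 female. Of all 69, 53 had the higher value in P1 male, with a median ratio of 1.63. On the log2(count + 1) scale the median difference, male over female, was 0.69 in the 68 members and -0.02 in all genes. The share of all genes with the higher value in P1 male was not counted, here or for the adrenocortical genes below. The coding members had a median ratio of 2.01 and 19 of 38 reached 2-fold, and the lncRNA members had a median of 1.16 with 9 of 27. Akr1b7 was 6.76 times, Ren1 8.73 times, A2m 5.46 times and Rfk 4.01 times as high in P1 male. Lypd3, a surface protein of epithelia named after its values were seen, had 123 counts in P1 male and 2.21, or 2 reads, in P1 female. By contrast Meg3 (0.98), Mirg (1.03), Hbb-bt (0.82) and Kel (0.86) were close to equal. Beside these values, 10 of 12 adrenocortical genes were also higher in P1 male, with list sums of 482911 and 269743. The kidney sum was 11089 in P1 male and 3568 in P1 female, and Ddx3y in the latter was 21.7% of the male count. The part of cortex content, kidney RNA or male tissue in the P1 difference was not tested.

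**Figure D5:**
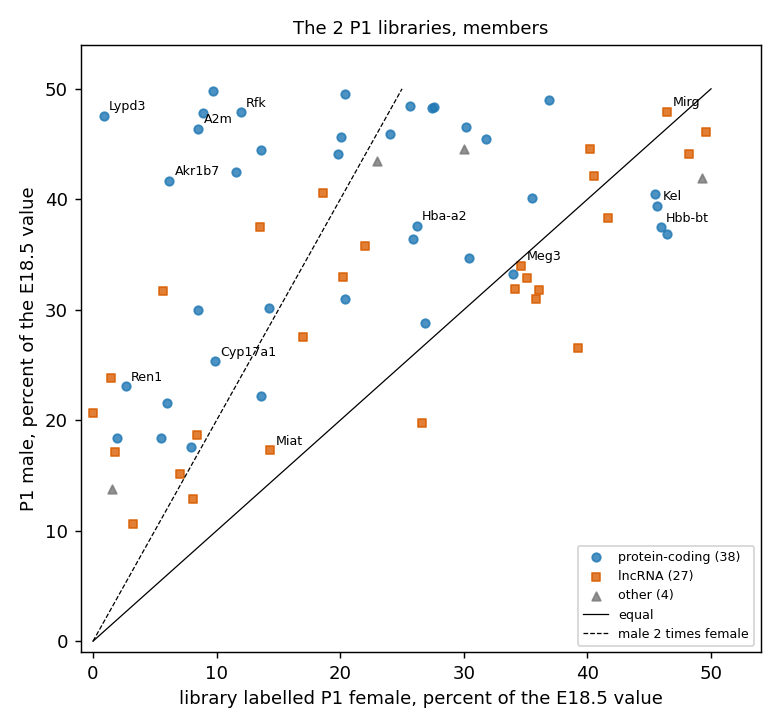
Each point is 1 member, placed by its count in the library labelled P1 female (horizontal) and in P1 male (vertical), each as a percent of the E18.5 value. The solid line marks equal values and the dashed line a male value 2 times the female; Lypd3, A2m, Akr1b7 and Rfk lie far above it, and Meg3, Mirg, Kel and Hbb-bt lie near the solid line.

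The sexes were compared in the same way at the later ages. At 2 weeks 0 members were 2-fold higher in male (0.568% of all genes) and 9 in female (13.2% of members; 3.67% of all genes): Ren1, Hba-a2, Hbb-bt, Kel, Aqp8, Lypd3, 5430401H09Rik, Gm39673 and Lincred1. Of these, Gm39673 and Lincred1 had passed the filter only through E18.5. Gm39673 had 2 reads in the 2-week male and 8 in the 2-week female, and Lincred1 had 1 and 7. In that female library the erythroid sum was 32229.5 against 12940 in the male. At 12 weeks 6 members were 2-fold higher in male (8.82% of members; 4.84% of all genes) and 10 in female (14.7%; 3.98% of all genes). The shares at both ages are of the 68 members and were not recounted with the filter on the postnatal mean. Across the 3 ages 0 members were called between the sexes by limma, where 0.00598% of all genes were called lower in males and 0% higher. With the filter on the postnatal mean 0 of 57 members were called. At an unadjusted p under 0.05, limma had 2 of 68 members (3.12% of all genes) and edgeR 5 (3.99% of all genes), and edgeR called 0 after adjustment. Leaving out either 12-week library gave more calls between the sexes, in members and in all genes. The members' median log2 difference, male over female, was then 0.30, against 0.20 with all 6 libraries. It was 0.37 without either 2-week library and -0.02 without either P1 library, so the 0.20 depended on the P1 pair. The median of all genes with all 6 libraries was -0.005.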

How the data were processed

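RNA from 7 pooled adrenal libraries was sequenced. The authors deposited 1 table of normalized counts. Per the submitters' processing notes, CASAVA 1.8.2, HISAT2 2.1.0, HTSeq 0.9.1, DESeq2 2.11.40.6 and mm10 were used; the annotation and strand setting are not given in the sources used here. The deposited values are a signal in which 100% were whole reads within 0.001 once divided by 1 step per library, so reads were recovered. RefSeq (GRCm38.p6, the build of mm10) matched by symbol 33500 of 35976 symbols.

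The module's rule was applied to the deposited values. Members and lists were chosen with earlier results of these data known. Named members are the 20 with the highest E18.5 count, the 20 with the largest ratio, those beside the limits, those in the marker and pathway lists, and the 4 largest called changes per comparison and direction; others are said to be named after their values were seen. limma 3.58.1 (R 4.3.3; trend, pseudocount 1, mean of at least 10 over 7 libraries) was the test, and edgeR 4.0.16 on recovered reads called 2795, 2396, 6754 and 0 genes between P1 and 2 weeks, 2 and 12 weeks, P1 and 12 weeks and the sexes. On simulated data limma recovered 98.5% to 100% of 200 genes changed by 2 on the log2 scale among 16720, with 2.45% to 5.69% false calls. The simulation gave all genes 1 fixed spread and let the sexes follow a common age course. Its changed genes had a mean of at least 20. These rates therefore do not carry over to the real pools, where the error comes from departures between the sexes. Counting intervals and floors cover counting error only. One member is counted in all totals but is not reported here by name or value.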

Additional observations from a re-analysis of the deposited data

Results flagged for a closer look

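In 8 cases a member moved at least 2-fold in opposite directions in males and females between the same ages, on the log2(count + 1) scale. Each value compares 1 pool with 1 pool, and the difference between the sexes was not tested. From P1 to 2 weeks Gm39673 changed by -2.07 in males and 1.94 in females, on counts of 10.6 and 1.1 in the P1 male and female. Lypd3 changed by -6.95 in males and 1.16 in females, with 122.7 counts in P1 male and at most 6.2 in the other postnatal libraries. Selenbp2 changed by -1.61 and 1.52. From 2 to 12 weeks Lincred1 changed by 1.46 in males and -2.84 in females, with at most 6.2 counts at either age.

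From P1 to 12 weeks Akr1b7 changed by -1.08 in males and 1.18 in females. Rfk changed by -2.19 in males and 1.98 in females over the same span. For Atp1a4 the changes were -1.70 in males and 1.40 in females, and for Wfdc12 they were -2.28 and 1.39. The 7 cases that start at P1 all fell in males and rose in females. In these the P1 male library was above the P1 female library, which opposite changes of this kind largely build in. Lincred1, the remaining case, does not use the P1 libraries. The number of all genes that moved in opposite directions was not counted.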

How the results depend on the processing

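The 69 members became 105 with a minimum of 25, 23 with a 3-fold limit and 210 with a 1.5-fold limit. Leaving out 1 postnatal library gave 71 to 127, the last without P1 male. With equal totals the rule took 80 genes and with upper-quartile scaling 74, and all 69 were among them. With all genes of mean above 0 tested, members called fell to 0 from P1 to 2 weeks, 0 from 2 to 12 weeks and 15 from P1 to 12 weeks. Of all 27254 genes then tested, 0, 0 and 4691 were called. With a mean of at least 50, members called were 11 and 15 for the first and last comparison, of 35 members tested. Of all 13670 genes then tested, 2197 and 5621 were called. Leaving out a library gave 0 to 32, 1 to 19 and 16 to 31 calls in these comparisons and 0 to 1 between the sexes, and edgeR gave 6 from 2 to 12 weeks. Counted at 4-fold, 12 members were higher in the P1 males (0.861% of all genes) and 2 each in the females of 2 weeks (1.06%), the males of 12 weeks (0.766%) and the females of 12 weeks (0.885%). The members compared at 4-fold, as at 2-fold, include those that passed the filter only through E18.5. Of 801 single-gene values under alternatives 583 kept their call, 218 lost it and 0 changed direction. Calls passed under every alternative run for 0 of 21, 0 of 10 and 11 of 28 members. The cause was not tested.

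Scaling to equal totals moved the median of all genes to -0.20 from 2 to 12 weeks and -0.15 from P1 to 12 weeks, where 10 and 29 members were then lower; over all genes from 2 to 12 weeks the split became 2515 lower and 647 higher, from 1654 and 903. With equal totals, a choice made after seeing the data, 29 members were 2-fold higher in P1 male, against 4.31% of all genes. No paired analysis was possible because each group is 1 library and replicate numbers pair nothing. In both 12-week libraries 15 members had 3 reads or fewer, which limits their values there.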
